A study of Mus musculus with 20 samples.

Results

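The genes described here are 8 regulators of the second heart field and outflow tract, chosen by symbol from a developmental gene list: the transcription factors Isl1, Tbx1, Tbx2 and Foxc2 and the secreted ligands Fgf8, Fgf10, Wnt11 and Sema3c. All 8 were found among the 33495 genes of a table of RNA-seq counts from 20 libraries of C57BL/6 mouse embryonic heart tissue, in which the histone methyltransferase gene Kmt2d had been deleted with 1 of 3 Cre lines. Mutants carried Cre; Kmt2d fl/fl; mTmG/+, and controls carried Cre; Kmt2d fl/+; mTmG/+, so every control also had the Cre transgene, 1 floxed Kmt2d allele and the mTmG reporter. Mesp1Cre, which is active in early cardiac mesoderm, was sampled as E9.0 whole heart (4 mutants, 4 controls). Mef2cAHF::Cre, driven by an anterior heart field enhancer of Mef2c, was sampled as E11.5 right ventricle and outflow tract (3 labelled mutant, 3 labelled control). Tnnt2::Cre, active in differentiated cardiomyocytes, was sampled as E11.5 whole heart (3 mutants, 3 controls). Whether a library came from 1 heart or from several was not given in the sources used here. P-values therefore measure the spread between libraries, which may be partly technical.

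The second heart field is a population of mesodermal progenitors behind and above the early heart tube that adds cells to its outflow and inflow poles and gives rise to the outflow tract and right ventricle. Isl1 marks these progenitors and is shut down as they become myocardium. Tbx1 keeps them dividing and acts upstream of FGF signals such as Fgf8 and Fgf10, while Tbx2 represses the chamber programme in the outflow tract and atrioventricular canal. Wnt11 is a non-canonical WNT ligand of the outflow tract, Sema3c guides neural crest cells into it, and Foxc2 acts in the mesenchyme and endothelium that shape the aortic arch and valves.

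The libraries held between 21727258 and 45341870 counts assigned to genes. Levels are given as CPM (counts scaled by library size and TMM over all 20 libraries), and differences as log2 fold changes with their SE from edgeR's quasi-likelihood test, with p-values adjusted over all genes tested. The sample labels of Mef2cAHF::Cre and the column names of the count table disagree: the 3 libraries labelled mutant stand under a wild-type column name and the 3 labelled control under a mutant one. Kmt2d, listed as Mll2 and counted over the whole gene, was at 133 ± 7.14 CPM in Mesp1Cre mutants and 156 ± 5.52 CPM in controls (SD, n = 4; adjusted p = 0.0764), and at 118 ± 4.28 against 150 ± 20.8 CPM in Tnnt2::Cre (SD, n = 3; adjusted p = 0.327). The groups did not overlap in CPM in either line (18.1% of all genes did not in Mesp1Cre and 16.9% in Tnnt2::Cre). On the deposited FPKM they did overlap in both (8.53 to 9.31 against 8.98 to 9.72 in Mesp1Cre, 6.36 to 7.94 against 6.93 to 9.75 in Tnnt2::Cre). In Mef2cAHF::Cre it went against the sample labels, at 185 ± 3.72 CPM in the libraries labelled mutant and 149 ± 5.72 CPM in those labelled control (SD, n = 3; log2 fold change 0.32 ± 0.06, adjusted p = 0.0359). These groups did not overlap in CPM (23.9% of all genes did not), nor in FPKM (11.1 to 11.8 against 9.46 to 10.8). The Kmt2d call was lost without each of 5 of the 6 libraries in turn, with adjusted p of up to 0.152, and on log2(FPKM + 0.1) (0.18, adjusted p = 0.228), on log2(FPKM + 1) (0.17, adjusted p = 0.23) and with all 20 libraries in 1 fit (adjusted p = 0.1). By the sample labels, the Kmt2d effects in Mef2cAHF::Cre and Tnnt2::Cre differed by 0.66 ± 0.12 (adjusted p = 0.00298). Those in Mesp1Cre and Mef2cAHF::Cre differed by -0.54 ± 0.11 (adjusted p = 0.00311). All 20 fits leaving out 1 library kept both calls, while log2(FPKM + 0.1) lost both (adjusted p = 0.133 and 0.284). By the column names these differences were 0.03 and 0.09. Which exons are deleted was not given in the sources used here, so these whole-gene counts are a weak check. Genotype effects in this line are therefore given by the sample labels and, where stated, by the column names, which turn the sign of every difference within the line. Markers of the atrium and inflow (9 genes) summed to between 41.2 and 60.5 CPM in the right ventricle and outflow tract libraries and to between 187 and 221 CPM in the E11.5 whole hearts, while cardiomyocyte markers were high in every library, at 20289 CPM or more. Liver markers summed to 2.91 CPM or less, except in 1 Tnnt2::Cre mutant at 12.3 CPM. Epicardial markers summed to between 24.1 and 89.6 CPM in the libraries labelled E9.0 and to between 220 and 318 CPM in those labelled E11.5.

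Exons of 6 of the 8 genes overlapped no other gene in the mm9 annotation. The exons of Fgf10 shared 2.67% of their bases with a gene on the opposite strand and those of Wnt11 10%, and the strand setting of the counting was not given. Promoters of 5 of the 8 genes were found in the RefSeq table of GRCm38.p6, those of Isl1, Tbx1, Fgf10, Wnt11 and Sema3c. The 250 bases before the outermost start listed for each gene are shown 5′ to 3′ on the strand of the gene, with matches to 5 motifs in capitals.
Isl1, chr13:116309689-116309938, minus strand: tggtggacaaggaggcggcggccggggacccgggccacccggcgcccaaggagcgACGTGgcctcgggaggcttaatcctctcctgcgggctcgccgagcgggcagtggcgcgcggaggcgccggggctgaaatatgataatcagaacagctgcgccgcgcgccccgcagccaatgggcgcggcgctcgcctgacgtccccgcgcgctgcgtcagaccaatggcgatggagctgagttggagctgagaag
Tbx1, chr16:18590672-18590921, minus strand: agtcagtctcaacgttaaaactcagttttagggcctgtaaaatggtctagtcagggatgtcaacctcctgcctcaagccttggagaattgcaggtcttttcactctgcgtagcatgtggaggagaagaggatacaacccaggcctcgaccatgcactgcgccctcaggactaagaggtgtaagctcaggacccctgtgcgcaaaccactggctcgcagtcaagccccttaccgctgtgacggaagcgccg
Fgf10, chr13:118714449-118714698, plus strand: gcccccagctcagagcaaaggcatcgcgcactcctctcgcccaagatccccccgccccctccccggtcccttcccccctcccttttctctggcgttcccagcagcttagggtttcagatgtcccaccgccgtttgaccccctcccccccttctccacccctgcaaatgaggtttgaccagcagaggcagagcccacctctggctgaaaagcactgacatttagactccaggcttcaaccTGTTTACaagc
Wnt11, chr7:98834862-98835111, plus strand: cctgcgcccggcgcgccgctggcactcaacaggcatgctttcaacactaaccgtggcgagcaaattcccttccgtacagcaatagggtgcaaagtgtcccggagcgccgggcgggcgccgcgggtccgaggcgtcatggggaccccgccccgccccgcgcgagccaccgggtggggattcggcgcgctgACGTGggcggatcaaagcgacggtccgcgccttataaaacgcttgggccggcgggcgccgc
Sema3c, chr5:17574566-17574815, plus strand: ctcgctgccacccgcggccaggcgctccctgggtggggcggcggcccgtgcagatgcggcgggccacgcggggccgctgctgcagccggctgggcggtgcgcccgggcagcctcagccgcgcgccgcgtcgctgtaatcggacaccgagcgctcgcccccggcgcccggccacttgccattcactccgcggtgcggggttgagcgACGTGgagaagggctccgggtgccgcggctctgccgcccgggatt

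The motifs, searched on both strands, were the T-box half-site GGTGTGA, the forkhead motif TGTTTAC, the GATA motif AGATAA, the NKX2-5 motif TNAAGTG and the hypoxia response core ACGTG. The last was found in the windows of Isl1, Wnt11 and Sema3c, and it stood in 16.6% of all 32851 windows of the table. The forkhead motif was found in the window of Fgf10, 11 bases before the start, and in 3.17% of all windows. The other motifs had no match in these 5 windows, against 3.33% of all windows for the T-box half-site, 9.99% for GATA and 10.1% for NKX2-5. The windows of Isl1, Wnt11 and Sema3c, which held the hypoxia response core, had GC contents of 71.2%, 70.8% and 78.4%. Those of Tbx1 and Fgf10 were at 54.4% and 61.2%, where the median over all windows was 52.4%. The shares over all windows were not matched for GC content. Tbx2, Fgf8 and Foxc2 are named only.

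On the length-scaled FPKM scale of the deposited table, which allows levels to be set between genes, Sema3c was the highest of the 8 in 4 of the 6 groups, reaching 14.8 ± 0.93 FPKM in the Mef2cAHF::Cre libraries labelled control. Foxc2 was the highest in the other 2 groups, the Mesp1Cre mutants (6.64 ± 1.38 FPKM, n = 4) and the Tnnt2::Cre mutants (4.78 ± 1.19 FPKM, n = 3). In those 2 groups Sema3c followed at 6.30 ± 1.95 and 4.09 ± 0.739 FPKM, within the spread of the libraries. Tbx1 and Fgf8 were the lowest pair in every group, with no mean above 0.763 FPKM.

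**Figure D1:**
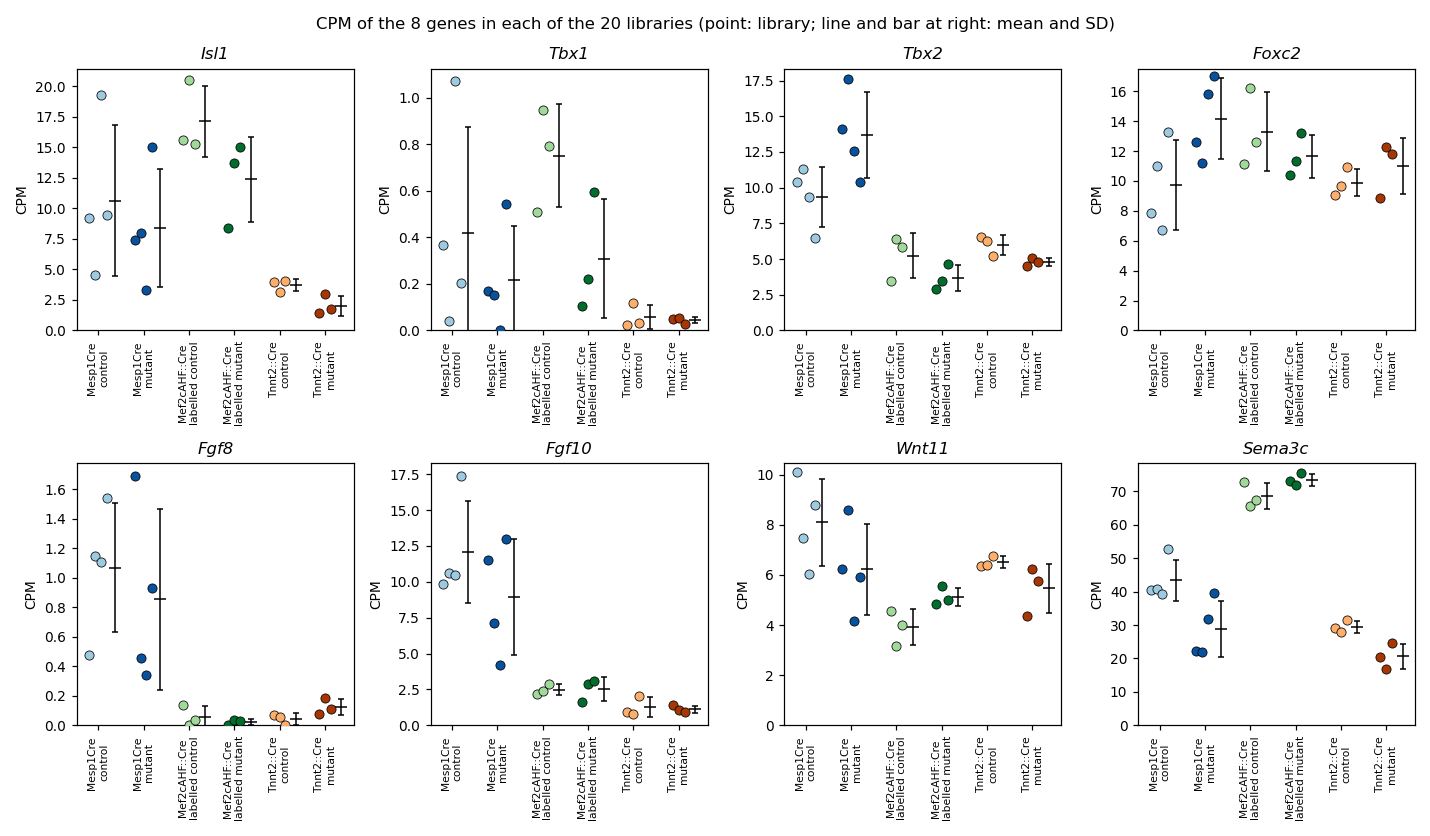
CPM of the 8 genes (y axis, linear, a separate scale for each gene) in the 20 libraries, by group on the x axis; each point is 1 library, and the line and bar beside the points give the mean and SD (bars are cut at 0). Sema3c sits between 65.6 and 75.4 CPM in the 6 right ventricle and outflow tract libraries and at 52.6 CPM or below in all others, and Fgf10 is at 4.22 CPM or above only in the E9.0 libraries.

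Between the E11.5 regions, 5 of the 7 regulators tested differed, where 49.3% of all 18212 genes tested did: Isl1, Tbx1, Fgf10 and Sema3c were higher in the right ventricle and outflow tract (23.6% of all genes were) and Wnt11 was lower (25.7%). Tbx1 is among these 5 but passed the filter on low counts only through the outflow group. Of all genes called, 52.2% were lower in the right ventricle and outflow tract, and on log2(FPKM + 0.1), a scale that shifted the median of all genes to 0.11, 39.6% were. Between E11.5 and E9.0 control whole hearts, 5 of the 7 tested differed, all lower at E11.5: Isl1, Tbx2, Fgf8, Fgf10 and Sema3c (38.3% of all genes differed and 18.8% were lower). Fgf8 is among these but passed the filter only through the E9.0 group. Between mutants and controls, edgeR called 0 of the 7 regulators tested in Mesp1Cre, 0 of 7 in Mef2cAHF::Cre and 0 of 6 in Tnnt2::Cre. Tbx1 was not tested in Mesp1Cre or Tnnt2::Cre, nor Fgf8 in Mef2cAHF::Cre or Tnnt2::Cre. Over the whole table, 1821 of 15883 genes were called in Mesp1Cre, 2.85% of genes in Mef2cAHF::Cre and 0.293% under Tnnt2::Cre. At an unadjusted p below 0.05 there were 3 of 7 in Mesp1Cre (26.9% of all genes), 1 of 7 in Mef2cAHF::Cre (17.9%) and 2 of 6 in Tnnt2::Cre (11.9%). The Mesp1Cre groups overlapped in all 8 genes, where 18.1% of all genes tested did not overlap. Among the regulators tested in Tnnt2::Cre, Isl1, Tbx2, Wnt11 and Sema3c did not overlap between the groups (16.9% of all genes did not). In Mef2cAHF::Cre, Isl1 and Wnt11 did not (23.9% of all genes). DESeq2 called 1 regulator in Mesp1Cre, Sema3c, and 0 in the other lines, and limma called 0 in all 3.

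Both of the first 2 comparisons set whole Cre lines against each other. The right ventricle and outflow tract came only from Mef2cAHF::Cre, the E11.5 whole hearts from Tnnt2::Cre and the E9.0 hearts from Mesp1Cre, and the labels describe each line's libraries as sequenced as a set of their own. Region, stage, Cre line and sequencing set cannot be told apart. The region comparison uses all 6 libraries of each line, so it does not depend on which reading of the Mef2cAHF::Cre labels is right. In bulk tissue, a change in the number of expressing cells and a change in RNA per cell cannot be told apart. Beside the stage difference, 8 of 8 epicardial and 13 of 13 erythroid markers were higher and 4 of 6 smooth muscle markers lower at E11.5. Beside the region difference, 9 of 9 atrial and inflow markers and 12 of 13 erythroid markers were lower in the right ventricle and outflow tract, as were 6 of 10 cardiomyocyte markers (3 higher) and 4 of 6 smooth muscle markers (1 higher), and 3 of the 4 pharyngeal epithelium markers tested were higher (8 genes summed to 1.78 to 5.84 CPM against 1.11 to 2.58 CPM, with Foxa2 at 3 counts or fewer in all 6 of those libraries). Their part in the regulators' differences was not tested.

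Isl1 (ENSMUSG00000042258; mm9 chr13:117088489-117099896, minus strand), the LIM-homeodomain factor that marks second heart field progenitors, was counted at 8.42, 13.7 and 15 CPM in the Mef2cAHF::Cre libraries labelled mutant and at 15.6, 20.5 and 15.3 CPM in those labelled control. In the E11.5 whole hearts of Tnnt2::Cre it was at 1.41, 2.96 and 1.73 CPM in mutants and 3.97, 3.13 and 4.05 CPM in controls. Every right ventricle and outflow tract library was above every E11.5 whole heart library, and the level was 5.3-fold higher (log2 fold change 2.41 ± 0.19, adjusted p = 1e-06). That value pools mutants and controls. Over all alternatives, controls alone among them, the log2 fold change ran from 1.74 to 2.59 and the call was kept. The E9.0 hearts spread widely, at 7.39, 7.95, 3.33 and 15 CPM in Mesp1Cre mutants and 9.19, 4.58, 19.3 and 9.47 CPM in controls. Isl1 was 2.92-fold lower in E11.5 than in E9.0 control whole hearts (log2 fold change -1.55 ± 0.39, adjusted p = 0.00839), and the control groups did not overlap (45.4% of all genes did not).

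The mutants and controls of Tnnt2::Cre did not overlap in Isl1 (16.9% of all genes tested did not), and the mutants were the lower group: the log2 fold change was -0.86 ± 0.30 with an unadjusted p of 0.018, but an adjusted p of 0.327. In Mef2cAHF::Cre the groups did not overlap either (23.9% of all genes did not), with a log2 fold change of -0.47 ± 0.21 for labelled mutant over labelled control (adjusted p = 0.276). By the column names this becomes 0.47, that is, higher in the mutants. Neural crest and glia markers summed to 113 to 122 CPM in the libraries labelled mutant and 82 to 89.6 CPM in those labelled control. Endothelial and endocardial markers summed to 670 to 700 against 600 to 649 CPM, and atrial and inflow markers to 58.1 to 60.5 against 41.2 to 54.5 CPM. The other marker sums overlapped, and the part of markers in the Isl1 and Wnt11 differences of this line was not tested. In Mesp1Cre the Isl1 groups overlapped throughout, with a log2 fold change of -0.32 ± 0.43 (adjusted p = 0.692). Without the third Mesp1Cre control the sign turned, to 0.14. That library, which had the highest Isl1 and Tbx1 of its group, also held the most pharyngeal epithelium marker counts, 34.3 CPM against 0.813 to 4.08 CPM in the other 3 controls and 0.597 to 8.25 CPM in the mutants. The part of these markers in the Isl1 level was not tested.

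Tbx1 (ENSMUSG00000009097; mm9 chr16:18581806-18588113, minus strand), the T-box factor of the pharyngeal arches and second heart field, was near the limit of detection. It summed to 63 counts over the 3 Mef2cAHF::Cre libraries labelled control (15, 27 and 21) and to 31 over those labelled mutant (3, 6 and 22). The E11.5 whole hearts held only 5 counts in mutants and 6 in controls, over 3 libraries each. The 6 right ventricle and outflow tract libraries ranged from 0.107 to 0.949 CPM and the whole hearts from 0.0235 to 0.116 CPM, so that the lowest library of the first group overlapped the highest of the second. The fitted log2 fold change was 3.22 ± 0.51 (adjusted p = 0.000229), or 0.34 on log2(FPKM + 1), but Tbx1 passed the filter on low counts only through the group where it was high, so this value is a description. In Mef2cAHF::Cre the log2 fold change of labelled mutant over labelled control was -1.21 ± 0.56 (adjusted p = 0.297), and 1.21 by the column names. In Mesp1Cre, where it was too low to be tested, there were 43 counts in the 4 controls, 27 of them in the third, and 22 in the 4 mutants, 1 of which had none. A count of 3 in a library was taken as the lowest level told from absence, and this covers counting error only.

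**Figure D2:**
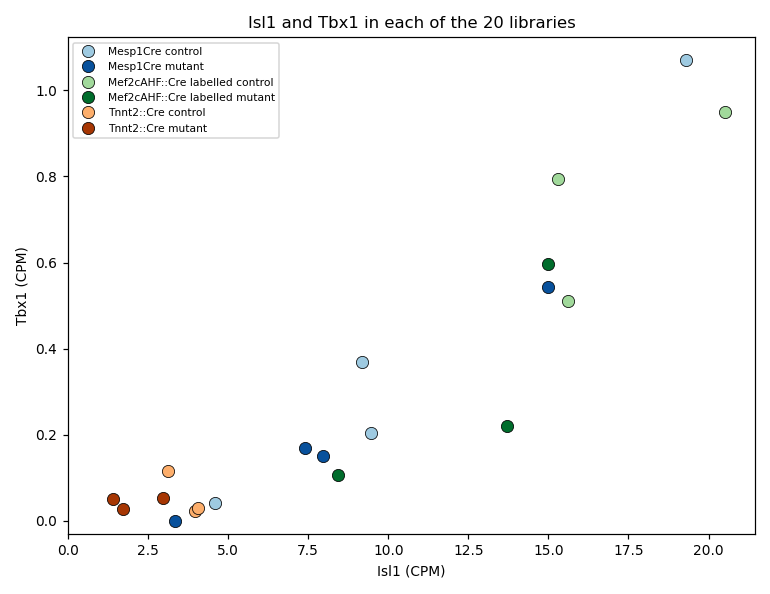
Isl1 (x axis, CPM) against Tbx1 (y axis, CPM) in the 20 libraries, coloured by group. Libraries with more Isl1 had more Tbx1, from the E11.5 whole hearts at the lower left to the third Mesp1Cre control (19.3 and 1.07 CPM) and a Mef2cAHF::Cre library labelled control (20.5 and 0.949 CPM) at the upper right.

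Isl1 and Tbx1 varied together, as the plot of both genes by library shows. Over the 20 libraries Pearson's r of their log2 CPM was 0.88, the highest of the 28 pairs of regulators, and over the deviations of the libraries from their group means it was 0.86. Isl1 was the gene most like Tbx1 among all genes tested. The same libraries and tissue pieces enter both values, so these correlations are descriptions only. The genes most like Isl1 were Plekha5 and Fgfr1, an FGF receptor (both r = 0.90), while the second most like Tbx1 was Ebf3 (r = 0.81).

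Tbx2 (ENSMUSG00000000093; mm9 chr11:85646053-85655450, plus strand), a T-box repressor of the chamber programme, had its highest levels at E9.0: 14.1, 17.6, 12.6 and 10.4 CPM in Mesp1Cre mutants and 10.4, 11.3, 9.34 and 6.46 CPM in controls. The mutant median of 13.3 CPM stood above the control median of 9.89 CPM, but the ranges met, with a log2 fold change of 0.56 ± 0.21 and an adjusted p of 0.103. In Mef2cAHF::Cre it was lower in the libraries labelled mutant (2.88, 3.45 and 4.66 CPM) than in 2 of the 3 labelled control (3.44, 6.43 and 5.82 CPM), with a log2 fold change of -0.51 ± 0.27 (adjusted p = 0.368), or 0.51 by the column names. In Tnnt2::Cre the mutants lay at 4.49, 5.06 and 4.80 CPM and the controls at 6.53, 6.29 and 5.20 CPM, which did not overlap (16.9% of all genes did not), with a log2 fold change of -0.33 ± 0.16 (adjusted p = 0.476).

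Under the sample labels, edgeR called a difference in genotype effect between Cre lines for 1 regulator, Tbx2, over the 3 pairs of lines. For Mesp1Cre against Tnnt2::Cre it called 0 of 8 (3.04% of all genes), with 1 at an unadjusted p below 0.05 (19.2%), and for Mef2cAHF::Cre against Tnnt2::Cre 0 of 8 (3.19%), with 1, Sema3c (15.3%). By the column names the last pair had 0 of 8 called, with Isl1 (1.34, unadjusted p = 0.0484; 0.40 by the sample labels) and Tbx2 (0.84, unadjusted p = 0.0279) below 0.05, where 472 of 18391 genes were and none was called. DESeq2 also called 0 for both pairs, as did limma. The effect in Mesp1Cre exceeded that in Mef2cAHF::Cre by 1.05 ± 0.33 on the log2 scale (adjusted p = 0.044, where 11.3% of all genes were called). By the column names the difference was 0.03 ± 0.33 (adjusted p = 0.979, where 1.63% were called). Leaving out single libraries under the sample labels gave differences of 0.87 to 1.28, and 12 of these 20 fits lost the call. Tbx2 did not pass the test between regions (log2 fold change -0.29 ± 0.16, adjusted p = 0.156), except with controls alone by the column names (-0.70, adjusted p = 0.0161). It was lower in E11.5 than in E9.0 control hearts (-0.67 ± 0.21, adjusted p = 0.0275), a call lost without each of 5 of the 7 libraries in turn (adjusted p of 0.0587 to 0.113). The genes most like Tbx2 over the 20 libraries were Tbx3, its close paralogue (r = 0.93), and Reep1 (r = 0.92).

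Foxc2 (ENSMUSG00000046714; mm9 chr8:123640483-123642792, plus strand), a forkhead factor of arch mesenchyme and endothelium, was the steadiest of the 8, its group means differing by at most 1.45-fold. It was at 12.6, 11.2, 15.8 and 17 CPM in Mesp1Cre mutants and at 7.87, 11, 6.73 and 13.3 CPM in controls. The log2 fold change was 0.56 ± 0.22 with an unadjusted p of 0.0265 and an adjusted p of 0.127, and the ranges overlapped. In Tnnt2::Cre (0.16 ± 0.16, adjusted p = 0.743) and Mef2cAHF::Cre (-0.19 ± 0.16, adjusted p = 0.577, or 0.19 by the column names) the groups overlapped as well. Between regions the log2 fold change was 0.26 ± 0.12 (adjusted p = 0.0876), and it passed the test without the first Mef2cAHF::Cre library labelled control (0.31, adjusted p = 0.0466). Between stages it was -0.01 ± 0.23 (adjusted p = 0.986), with a 95% interval from -0.45 to 0.44. The genes most like it were Zfp551 and Acad11 (both r = 0.81).

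**Figure D3:**
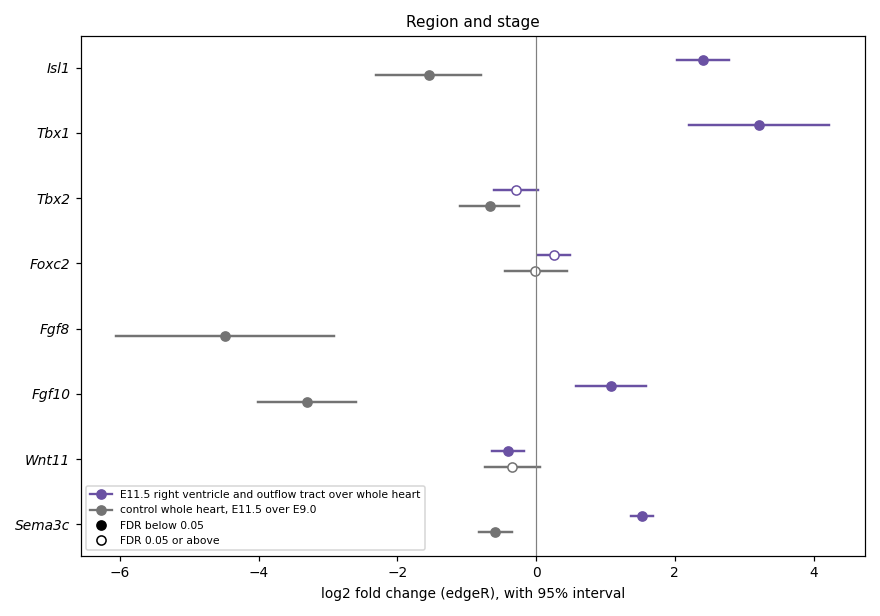
Log2 fold changes (x axis, edgeR, with 95% intervals) of the regulators for E11.5 right ventricle and outflow tract over E11.5 whole heart and for E11.5 over E9.0 control whole heart, with filled points for adjusted p below 0.05. Tbx1 was not tested between stages and Fgf8 not between regions. Isl1, Fgf10 and Sema3c are higher in the outflow tissue and lower at E11.5. Fgf8 is at -4.49 and Fgf10 at -3.31 between stages, an order that turns on log2(FPKM + 1), with -0.76 and -1.50.

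Fgf8 (ENSMUSG00000025219; mm9 chr19:45811288-45817405, minus strand), an FGF ligand of pharyngeal tissue and early second heart field, was detected above a handful of counts only at E9.0. Mesp1Cre controls held 13, 28, 28 and 38 counts and mutants 40, 12, 8 and 24. Their log2 fold change was -0.31 ± 0.59 (adjusted p = 0.786), with a 95% interval from -1.47 to 0.85. The E11.5 groups summed to 14 counts in Tnnt2::Cre mutants, 5 in controls, 2 in Mef2cAHF::Cre libraries labelled mutant and 5 in those labelled control, and a difference was not detectable at this depth in either line or between regions. Between stages, 5 counts in all stood behind the E11.5 controls and 107 behind the E9.0 controls. The fitted log2 fold change was -4.49 ± 0.80 (adjusted p = 0.0011), or -0.76 on log2(FPKM + 1), but Fgf8 passed the filter on low counts only through the E9.0 group, so this value too is a description. Matr3 and Strbp were most like it over the libraries (both r = 0.94).

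Fgf10 (ENSMUSG00000021732; mm9 chr13:119458598-119580927, plus strand), an FGF ligand used as a marker of the anterior second heart field, was at 9.82, 10.6, 10.5 and 17.4 CPM in Mesp1Cre controls and between 4.22 and 13 CPM (median 9.32 CPM) in the 4 mutants, with overlapping ranges (log2 fold change -0.41 ± 0.31, adjusted p = 0.435). E11.5 control whole hearts held 0.917, 0.782 and 2.07 CPM, 9.9-fold less than the E9.0 controls (log2 fold change -3.31 ± 0.36, adjusted p = 4.28e-05), and these groups lay far apart. The right ventricle and outflow tract held between 1.6 and 3.12 CPM, 2.11-fold more than the E11.5 whole hearts (log2 fold change 1.08 ± 0.26, adjusted p = 0.00385). With controls alone the adjusted p was 0.0574 (sample labels) or 0.0564 (column names), at log2 fold changes of 0.99 and 1.04. Neither E11.5 genotype comparison passed the test, at 0.05 ± 0.28 in Mef2cAHF::Cre (-0.05 by the column names) and -0.14 ± 0.40 in Tnnt2::Cre. The genes most like Fgf10 were Ascc3 (r = 0.96) and Lef1, a transcription factor of canonical WNT signalling (r = 0.95).

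Wnt11 (ENSMUSG00000015957; mm9 chr7:105987514-106003705, plus strand), the non-canonical WNT ligand, was the 1 regulator called lower in the right ventricle and outflow tract than in E11.5 whole heart, at 3.16 to 5.54 CPM against 4.38 to 6.77 CPM with overlapping ranges (log2 fold change -0.41 ± 0.12, adjusted p = 0.0113). With controls alone by the column names it no longer passed (-0.34, adjusted p = 0.0708), nor did it on log2(FPKM + 0.1) (adjusted p = 0.0993) or log2(FPKM + 1) (adjusted p = 0.0877). Within Mef2cAHF::Cre the libraries labelled mutant (4.83, 5.54 and 5.01 CPM) all lay above those labelled control (4.57, 3.16 and 4.01 CPM), where 23.9% of all genes did not overlap. The log2 fold change was 0.39 ± 0.18 (adjusted p = 0.289), and -0.39 by the column names. In Tnnt2::Cre the order was the other way, with mutants at 4.38, 6.24 and 5.77 CPM below controls at 6.35, 6.40 and 6.77 CPM, without overlap, as in 16.9% of all genes (-0.25 ± 0.17, adjusted p = 0.621). The difference between these 2 genotype effects was 0.64 ± 0.33 by the sample labels (adjusted p = 0.379, where 3.19% of all genes were called) and -0.14 ± 0.33 by the column names. In Mesp1Cre the level was 6.23 ± 1.82 CPM in mutants and 8.10 ± 1.74 CPM in controls (SD, n = 4; log2 fold change -0.36 ± 0.25, adjusted p = 0.386). Cxx1b (r = 0.91) and Nmt2 (r = 0.87) were most like Wnt11.

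Sema3c (ENSMUSG00000028780; mm9 chr5:17080634-17236086, plus strand), the secreted semaphorin that guides neural crest cells into the outflow tract, showed the smallest p of the 8 between the regions. It was at 73, 71.8 and 75.4 CPM in Mef2cAHF::Cre libraries labelled mutant and 72.9, 65.6 and 67.4 CPM in those labelled control, against 16.9 to 31.4 CPM in E11.5 whole hearts. The groups did not overlap (24.5% of all genes did not), and the level was 2.88-fold higher (log2 fold change 1.53 ± 0.08, adjusted p = 6.67e-08), which ranked 21 of 18212 genes by p. That value pools mutants and controls. Over all alternatives, controls alone among them, the log2 fold change ran from 1.23 to 1.62 and the call was kept. Between stages Sema3c was lower in E11.5 control whole hearts (-0.59 ± 0.12, adjusted p = 0.00288).

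Sema3c also came nearest to a genotype difference. In Mesp1Cre the mutants were at 22.3, 21.8, 31.8 and 39.5 CPM and the controls at 40.6, 40.9, 39.4 and 52.6 CPM, so that 3 of 4 mutants lay below every control. The log2 fold change was -0.57 ± 0.18 with an unadjusted p of 0.00849 and an adjusted p of 0.0638. It passed the test by DESeq2 (adjusted p = 0.014), with all 20 libraries in 1 fit (0.0117) and without the fourth mutant (-0.75 ± 0.17, adjusted p = 0.0194), and over all alternatives the adjusted p ran from 0.0117 to 0.192. In Tnnt2::Cre the mutants, at 20.3, 16.9 and 24.6 CPM, lay below the controls, at 29.1, 27.9 and 31.4 CPM, without overlap (16.9% of all genes did not overlap). The log2 fold change was -0.51 ± 0.14, with an unadjusted p of 0.00583 and an adjusted p of 0.239. In Mef2cAHF::Cre, where Sema3c was highest, the log2 fold change was 0.10 ± 0.07 (adjusted p = 0.505), or -0.10 by the column names, with a 95% interval from -0.03 to 0.23 in the first reading. The effects in Mesp1Cre and Tnnt2::Cre differed by -0.07 (95% interval -0.53 to 0.39). Those in Mef2cAHF::Cre and Tnnt2::Cre differed by 0.61 ± 0.25 by the sample labels (unadjusted p = 0.0228, adjusted p = 0.221) and by 0.42 ± 0.25 under the column names. Those in Mesp1Cre and Mef2cAHF::Cre differed by -0.69 ± 0.23 by the sample labels (adjusted p = 0.0623, and 0.0352 by DESeq2) and by -0.49 ± 0.23 by the column names (adjusted p = 0.302). The genes most like Sema3c were Man1a2 and Nrg1, an ERBB receptor ligand (both r = 0.95). Beside the Mesp1Cre difference, 4 of 13 erythroid and 2 of 6 smooth muscle markers were lower and 4 of 9 endothelial markers higher in the mutants, and neural crest and glia markers (6 genes, with Foxd3 at 3 counts or fewer in all 8 libraries) summed to between 64.5 and 106 CPM in mutants and between 44.2 and 62.4 CPM in controls, with 1 of the 3 tested called higher and 1 lower. Cardiomyocyte markers summed to between 39110 and 49350 CPM in mutants and between 30426 and 38386 CPM in controls, with 1 of 10 called higher and 2 lower. Atrial and inflow markers summed to 352 to 575 CPM in mutants and 158 to 429 CPM in controls, with 1 of 8 tested called higher. The called marker was Tbx5, at 239 ± 37.1 CPM in mutants and 145 ± 30 CPM in controls (SD, n = 4), which is also a companion gene below. In Tnnt2::Cre no gene of any marker list was called, but the erythroid markers summed to between 19551 and 133561 CPM in mutants and between 104829 and 161989 CPM in controls. Their part in the Sema3c level was not tested.

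**Figure D4:**
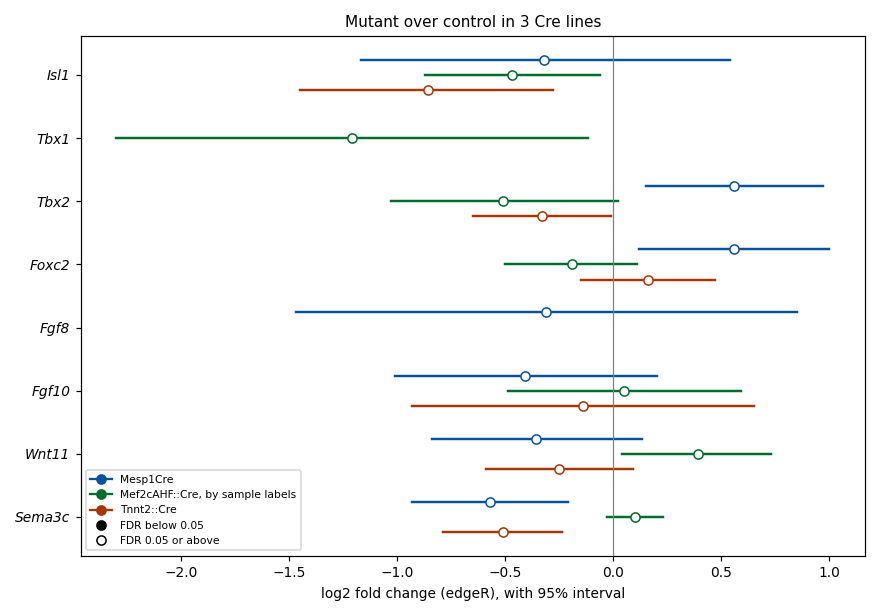
Log2 fold changes of mutant over control (x axis, edgeR, with 95% intervals) for the regulators in the 3 Cre lines, with Mef2cAHF::Cre drawn by its sample labels; by the column names its points mirror about 0. All points are open (adjusted p of 0.05 or above), and Sema3c is at -0.57 in Mesp1Cre and -0.51 in Tnnt2::Cre but at 0.10 in Mef2cAHF::Cre. The intervals of Tbx2 in Tnnt2::Cre and of Tbx1 and Wnt11 in Mef2cAHF::Cre leave out 0. Their unadjusted p by edgeR was 0.0765, 0.0573 and 0.0544, as the intervals are narrower than the tests imply. Tbx1 was not tested in Mesp1Cre or Tnnt2::Cre, nor Fgf8 in Mef2cAHF::Cre or Tnnt2::Cre.

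The 94 companion genes in the table are transcription factors, ligands, receptors, targets and adaptors of the same pathways. In Mesp1Cre 13 of 85 tested were called, 8 higher and 5 lower in mutants (1821 of all 15883 genes were called). Among the largest were Bmp10, a trabecular BMP ligand (log2 fold change -1.09 ± 0.26), Dusp6, a phosphatase that FGF signalling induces (0.77 ± 0.15), Nrg1 (-0.76 ± 0.19), Tbx5, a factor of the atria and left ventricle (0.74 ± 0.15), and Pdgfa, a PDGF ligand (-0.71 ± 0.19). In Mef2cAHF::Cre 3 of 85 were called (2.85% of all genes). By the sample labels Edn1, the endothelin ligand (-0.88 ± 0.15), and Nrp2, a semaphorin co-receptor (-0.70 ± 0.10), were lower and Sema3a higher (0.41 ± 0.08), and the column names turn all 3 around. In Tnnt2::Cre edgeR called 0 of 86, with 18 at an unadjusted p below 0.05 (11.9% of all genes); no other tool was run on this list.

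Of the 16 target and feedback genes of FGF, WNT, BMP and hedgehog signalling, 2 were called in Mesp1Cre, where 1821 of all 15883 genes were. These were Dusp6 and Smad7, a BMP and TGF-beta feedback gene (0.69 ± 0.15, adjusted p = 0.0132). None was called in Mef2cAHF::Cre (2.85% of all genes) or Tnnt2::Cre (0.293%). Dusp6 was at 18.6 ± 2.76 CPM in Mesp1Cre mutants and 11.1 ± 1.28 CPM in controls (SD, n = 4; adjusted p = 0.00639). In Tnnt2::Cre its log2 fold change was 0.75 ± 0.18 and that of Spry1, another FGF feedback gene, 0.89 ± 0.23, with adjusted p of 0.177 and 0.219. There Spry4 was at 0.52 ± 0.19, while Spry2 (0.04), Etv1 (-0.03), Etv4 (0.15) and Etv5 (0.21) of the same list lay nearer to no change. In Mef2cAHF::Cre by the sample labels Dusp6 was at -0.28 ± 0.16 and Spry1 at -0.62 ± 0.23, which turn positive by the column names. Axin2, a target of canonical WNT signalling, was at -0.94 ± 0.31 in Mesp1Cre (adjusted p = 0.067), -0.38 ± 0.19 in Tnnt2::Cre and 0.14 ± 0.20 in Mef2cAHF::Cre by the sample labels, with the opposite sign by the column names.

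**Figure D5:**
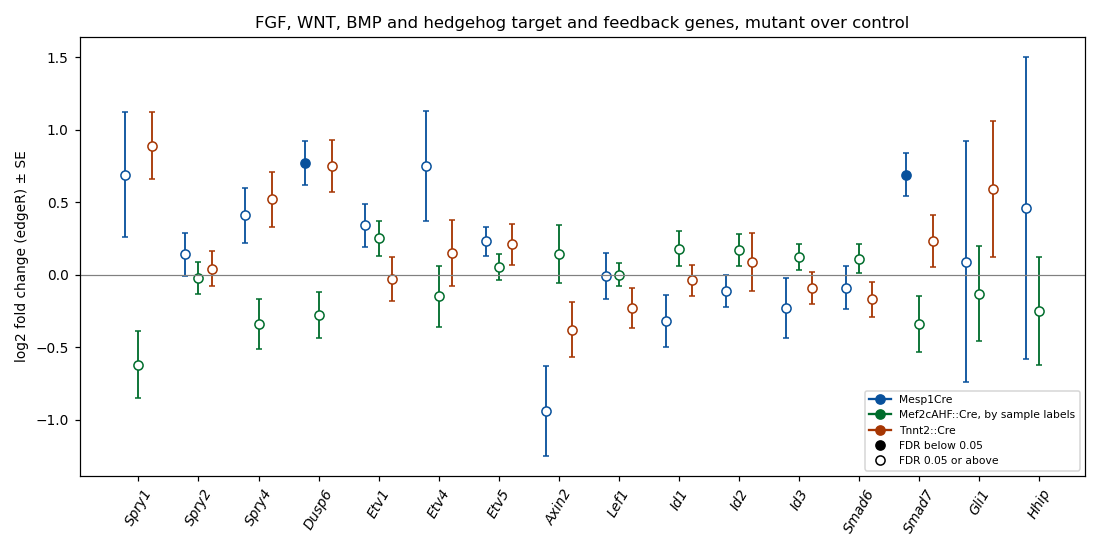
Log2 fold changes (y axis, edgeR, bars are SE) of mutant over control for 16 signalling target and feedback genes in the 3 Cre lines, with Mef2cAHF::Cre by its sample labels and filled points for adjusted p below 0.05. Dusp6 and Smad7 in Mesp1Cre are the filled points, and Hhip was not tested in Tnnt2::Cre.

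Between the regions, 61 of 89 companion genes were called (49.3% of all genes), 38 higher and 23 lower in the right ventricle and outflow tract. Receptors made up 14 of the 38, with 2 lower among 23 tested, whereas 12 of the 27 transcription factors tested were lower and 9 higher. Of all genes, 23.6% were higher and 25.7% lower. Foxh1 (-2.82 ± 0.53), the WNT ligand Wnt2 (-2.05 ± 0.23), Hoxb1 (-2.05 ± 0.34), Six2 (-1.77 ± 0.24) and Tbx5 (-1.57 ± 0.13) were lower and Msc higher (1.6 ± 0.59). Foxh1, Hoxb1 and Msc averaged below 1 CPM in both regions, so their values are descriptions. Of the signalling targets, Spry2, Spry4, Etv1, Lef1, Id2, Smad6 and Hhip were higher and Axin2, Id1 and Id3 lower. Hhip averaged 0.368 CPM in the Mef2cAHF::Cre libraries labelled mutant and 0.437 CPM in those labelled control. Within Tnnt2::Cre it was too low to be tested (0.115 CPM in mutants, 0.197 CPM in controls), so its place among the higher genes is a description. Between the stages, 51 of 84 companion genes were called (38.3% of all genes), 15 higher and 36 lower at E11.5 (18.8% of all genes were lower). Aldh1a2, the retinoic acid synthetic enzyme (4.17 ± 0.58), Tcf21 (3.00 ± 0.43) and Sema3d (2.19 ± 0.50) were higher, and Prdm1 (-3.14 ± 0.34) and Foxh1 (-3.13 ± 0.51) lower. Aldh1a2 and Sema3d also stand in the list of 8 epicardial markers, all of which were higher at E11.5. Tbx5 likewise stands in the list of 9 atrial and inflow markers, all of which were lower in the right ventricle and outflow tract.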

How the data were processed

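RNA-seq counts per gene and FPKM were deposited by the authors for all 20 libraries in 1 table of 33495 genes. The submitters' processing notes name TopHat2 2.0.8b and mm9. For the counting step the labels name USeq and the study's methods FeatureCounts. The labels and the methods name different library kits and sequencers. The deposited FPKM are the authors' own counts per length and depth. Another 20 columns of normalised per-sample values were not used. Both the labelled age (E9.0 or E11.5) and a protocol naming E11.5 for all samples are given for Mesp1Cre; the age label was used.

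Counts were tested in edgeR 4.0.16 (R 4.3.3) with filterByExpr, TMM and quasi-likelihood F-tests, separately for each Cre line, for the 12 E11.5 libraries and for the 7 control whole hearts. Differences between lines came from 1 fit of all 6 groups. Genes were called at a Benjamini-Hochberg adjusted p below 0.05, over all genes tested. SE is the log2 fold change divided by the square root of F, and 95% intervals are 1.96 SE either side. That normal multiplier makes no allowance for the few libraries, so the intervals are narrower than the F-tests imply. Tbx2 in Tnnt2::Cre, for example, had an interval from -0.65 to -0.01 at an unadjusted p of 0.0765 by edgeR. Alternatives used DESeq2 1.42.0, its size factors, other filters, limma 3.58.1 on log2 FPKM with pseudocounts of 0.1 and 1, a replicate block and leaving out each library. The scripts were tested on simulated data. Correlations are Pearson's r of log2 CPM with a prior count of 2.

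The regulators and the companion and marker lists were chosen with earlier results of these data known. Of the companion lists, at most the 6 called genes with the largest change in each comparison are named (some are not reported here), with the signalling target list whatever it shows and, for each regulator, the 2 genes most like it. The counts behind each library limit the precision, and intervals cover the spread between libraries only.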

Additional observations from a re-analysis of the deposited data

Results flagged for a closer look

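The fourth Mesp1Cre control stood far above the other 3 in Fgf10, at 17.4 CPM, and in Sema3c, at 52.6 CPM. Of the 16 sets of 4 libraries examined in this way (8 genes in 2 groups), these 2 were picked out, where chance picks about 1 in 20. The same library had the lowest sum of atrial and inflow markers in its group, 158 CPM against 347 to 429 CPM, and whether that bears on Fgf10 or Sema3c was not tested. Tbx2 was picked out because its genotype effect differed between Mesp1Cre and Mef2cAHF::Cre by 1.05 on the log2 scale under the sample labels.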

How the results depend on the processing

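Of 1153 values of the regulators under alternatives, 1068 kept their direction and their side of the threshold, 23 lost a call, 14 gained one and 48 changed sign, none of these 48 being called. Why values moved was not tested. By the column names of Mef2cAHF::Cre, the log2 fold changes became 0.47 for Isl1, 1.21 for Tbx1, 0.51 for Tbx2, -0.05 for Fgf10, -0.39 for Wnt11, -0.10 for Sema3c, 0.19 for Foxc2 and -0.32 for Mll2. The difference from Tnnt2::Cre became 1.57 for Tbx1, 0.84 for Tbx2, -0.14 for Wnt11 and 0.04 for Foxc2, and that of Mesp1Cre from Mef2cAHF::Cre -0.81 for Isl1, -2.18 for Tbx1, -1.62 for Fgf8, 0.01 for Wnt11 and 0.09 for Mll2. The values of Tbx1 and Fgf8 between lines are descriptions. With log2(FPKM + 0.1), Fgf10 turned to -0.11 in Mef2cAHF::Cre, 0.03 in Tnnt2::Cre and -0.15 for their difference, and Sema3c to -0.04 in Mef2cAHF::Cre; with log2(FPKM + 1) these 2 genes were at -0.04 and -0.03 there. Foxc2 between stages turned to 0.03 with no filter or with 10 counts in every library. With controls alone by the sample labels, Mll2 between regions was at 0.

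Leaving out 1 library at a time, these log2 values crossed 0: in Mesp1Cre Isl1 (-0.75 to 0.14), in Mef2cAHF::Cre Fgf10 (-0.13 to 0.29), in Tnnt2::Cre Fgf10 (-0.39 to 0.40), between stages Foxc2 (-0.14 to 0.18) and Mll2 (-0.15 to 0.03). For Mesp1Cre against Tnnt2::Cre these were Tbx1 (-1.61 to 0.40), Wnt11 (-0.32 to 0.02) and Sema3c (-0.26 to 0.07), for Mef2cAHF::Cre against Tnnt2::Cre Fgf10 (-0.36 to 0.43), and for Mesp1Cre against Mef2cAHF::Cre Isl1 (-0.30 to 0.59), Tbx1 (-0.68 to 1.32) and Fgf8 (-0.52 to 1.52). Those of Tbx1 and Fgf8 are descriptions.

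Counts of all genes called, 1821 in Mesp1Cre, were 3593 with all 20 libraries in 1 fit and 1052 to 2161 leaving out libraries. In Mef2cAHF::Cre 482 became 1103 with DESeq2, 1311 with no filter, 291 and 253 on log2 FPKM (pseudocounts 0.1 and 1), 129 in 1 fit and 75 to 662 leaving out libraries. In Tnnt2::Cre 50 became 368, 120, 22 and 19, 82 and 4 to 896 in the same order. On log2(FPKM + 0.1) the share of calls that were lower was 15% instead of 46.2% for Mesp1Cre, and 61.9% instead of 36.5% for Mef2cAHF::Cre, with the median of all genes at 0.15 and -0.13. For Mesp1Cre against Tnnt2::Cre 559 became 1242 with DESeq2, 324 on log2(FPKM + 0.1) and 167 to 1037 leaving out libraries. For Mef2cAHF::Cre against Tnnt2::Cre 586 became 1035, 1375 and 295 to 1031, and 0 with edgeR by the column names, where 472 genes had an unadjusted p below 0.05 and no other tool was run. For Mesp1Cre against Mef2cAHF::Cre 2076 became 3156 on log2(FPKM + 0.1), 299 by the column names and 1225 to 2471 leaving out libraries. Regulators called went from 0 to 1 in Mesp1Cre with DESeq2 or 1 fit (0 to 1 leaving out libraries), from 5 to 3 between regions with controls alone by the column names, and from 1 to 2 for Mesp1Cre against Mef2cAHF::Cre with DESeq2, no filter or log2(FPKM + 0.1), 0 by the column names and 0 to 2 leaving out libraries.

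The replicate numbers are shared between groups but did not pair the libraries: correlations of same-numbered libraries ran from -0.03 to 0.13. With the replicate block, 1384 genes were called in Mesp1Cre with 1 regulator, Sema3c (-0.60, adjusted p = 0.0246), 517 in Mef2cAHF::Cre, where Mll2 lost its call (adjusted p = 0.0584), and 28 in Tnnt2::Cre. The block also gave 2 regulators for Mesp1Cre against Mef2cAHF::Cre, put Foxc2 past the threshold between regions (adjusted p = 0.0369) and turned it to 0.21 between stages. Depth limits Tbx1 and Fgf8 most.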
